A study of Mus musculus with 14 samples.

Results

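The subject is the effect of losing Dnmt1 in mouse myeloid progenitors, described across all annotated genes of an expression array. The arrays were chosen by their titles, which name the sorted population and the Cre status, and they are 6 of the 14 arrays of the series. Knockout mice were Dnmt1 fl/fl and carried Mx-Cre, a Cre transgene under an interferon-inducible promoter, and gave 3 arrays. Control mice were Dnmt1 fl/fl without the transgene, littermates of the knockouts, and gave the other 3. Both genotypes were C57BL/6, 8 to 12 weeks old, and were injected 7 times with poly(I)poly(C), the dose being 25 ug/kg, so the agent that switches on Mx-Cre, and the interferon it induces, was common to both. After 4 further days the marrow of 4 to 6 mice of 1 genotype was pooled for each array, depleted of cells with mature lineage markers, and sorted as Kit+ Sca-1-. The same replicate number marks a pair of littermate pools. Mx-Cre is not restricted to progenitors: other marrow cells and other organs that respond to interferon can delete the gene too. The other 8 arrays hold long-term haematopoietic stem cells (LT-HSCs) and multipotent progenitors (MPPs), with 2 knockout and 2 control arrays each, and they enter here through the shared estimate of spread and for comparison. Every p-value describes pools of mice, not single mice.

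Dnmt1 is the methyltransferase that restores methylation at CG pairs on the new strand after DNA replication, so a dividing cell without it dilutes its methylation at each division. Some genes of the germline and the early embryo are held silent in body cells by methylation of CG pairs at their promoters. Kit+ Sca-1- progenitors are rapidly dividing cells that give rise to granulocytes, monocytes, red cells and megakaryocytes.

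Several marker genes of this gate were high. Mpo, the peroxidase of primary granules, read 5596 to 6755 units in knockout arrays and 5359 to 6618 in control arrays, and Kit read 309.9 to 377 against 349 to 457. The erythroid surface protein Ermap read 1053 to 1180 units in knockout and 1092 to 1654 in control arrays. It read 510 to 2204 units in LT-HSC arrays and 68.95 to 657 in MPP arrays, and which cells of the gate made it was not tested. Markers of mature granulocytes were high too, on some or all arrays. S100a8 read 602 to 3878 units in knockout and 1703 to 3715 in control arrays. Ngp read 25.3 to 1438 units in knockout and 191 to 1371 in control arrays, and Ltf 5.03 to 446 and 25.1 to 330. Defining markers of B cells (Cd79a, Ebf1), NK cells (Ncr1), stroma (Col1a1) and endothelium (Cdh5) stayed at or below 30.0 units in knockout arrays and 26.2 in control arrays, where the array medians lay between 41.1 and 47.5. Other genes of these lists were higher: 5 of 17 B cell genes lay above the array median on all 6 arrays, as did 2 of 20 T and NK cell genes and 3 of 15 endothelial and stromal genes. Among them Cd79b, of the B cell receptor complex, read 142, 102 and 114 units in knockout and 191, 133 and 165 in control arrays, Ighm 106 to 173 in knockout and 131 to 312 in control arrays, and Pdgfrb 75.3 to 100.3 in knockout and 75.6 to 147 in control arrays. The summed intensity of the B cell list was 783 to 1675 units in knockout and 813 to 2021 in control arrays. Ly6a, which encodes Sca-1, had no probe set of a single symbol and was not analysed here. The median standard deviation of a gene was 0.18 in the knockout and 0.27 in the control group, on the log2(intensity + 16) scale used for every difference below, beside 0.26 to 0.34 in the groups of the other populations. Control array 1 stood apart in its 18S ribosomal RNA probe set, at 856.5 units against 5366 to 7452 on the other 5 arrays.

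Dnmt1 itself was lower in the knockout arrays without being absent. Its probe set with the higher mean read 1055, 1084 and 1193 units in knockout arrays 1, 2 and 3, against 1328, 2156 and 1571 units in control arrays 1, 2 and 3. All knockout arrays lay below all control arrays. The difference was -0.55 ± 0.21 (log2, SE of the limma fit; n = 3 each) and missed the threshold, with an adjusted p of 1.00. The second Dnmt1 probe set read 812, 802 and 775 units in knockout arrays, against 1846, 2107 and 1345 in control arrays, a difference of -1.08, again without overlap. The sources used here do not say where these probe sets lie relative to the deleted exons. Fewer cells with the transcript and less transcript per cell cannot be told apart in bulk RNA, here and in every result below. Of the 11 tested genes of the methylation machinery none passed the threshold in limma, and 1, Dnmt1, had an unadjusted p under 0.05, as had 1.02% of all genes. Dnmt3a, a methyltransferase that sets methylation without a methylated template, read 532, 471 and 640.1 units in knockout and 687, 653 and 683 in control arrays (difference -0.22 ± 0.24).

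In myeloid progenitors 8 genes rose in the knockout and none fell (0%), at an adjusted p of 0.05 in limma over 8612 genes. The 8 are 0.0929% of the genes tested, and 7 of them belong to a list of germline and early embryo genes. This list had 22 members among the 8612 genes tested. It was chosen with earlier results of these data known, so the membership of the 7 is not independent of these data. The promoter windows of 4 of the 8, all from this list, are printed to show their CG pairs. They are RefSeq windows of GRCm38.p6, from 250 bases before to 50 bases after the annotated start, written 5′ to 3′ on the gene's own strand, with each CG pair in capitals. Tex19.1 lies at chr11:121145893-121146192 on the plus strand and Tex19.2 at chr11:121118628-121118927 on the minus strand. Dazl lies at chr17:50293571-50293870 on the minus strand and Rhox5 at chrX:37754358-37754657 on the plus strand.
Tex19.1: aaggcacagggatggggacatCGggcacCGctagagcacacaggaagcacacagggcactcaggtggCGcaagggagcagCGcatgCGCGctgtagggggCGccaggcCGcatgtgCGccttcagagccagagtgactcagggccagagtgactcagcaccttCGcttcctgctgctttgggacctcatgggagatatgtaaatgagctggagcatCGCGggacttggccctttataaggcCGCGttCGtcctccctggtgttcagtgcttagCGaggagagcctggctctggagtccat
Tex19.2: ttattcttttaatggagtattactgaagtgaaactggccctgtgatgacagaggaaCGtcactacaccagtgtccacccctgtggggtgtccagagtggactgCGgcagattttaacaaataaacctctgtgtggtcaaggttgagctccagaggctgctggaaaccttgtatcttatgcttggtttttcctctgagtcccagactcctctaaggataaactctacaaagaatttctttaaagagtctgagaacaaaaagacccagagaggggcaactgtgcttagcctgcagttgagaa
Dazl: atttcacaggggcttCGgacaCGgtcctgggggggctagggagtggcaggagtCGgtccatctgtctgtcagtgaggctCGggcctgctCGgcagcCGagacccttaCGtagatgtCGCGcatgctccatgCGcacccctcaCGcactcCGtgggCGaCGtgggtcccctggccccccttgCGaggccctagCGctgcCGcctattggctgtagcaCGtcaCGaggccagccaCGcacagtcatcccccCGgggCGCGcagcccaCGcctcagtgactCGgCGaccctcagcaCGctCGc
Rhox5: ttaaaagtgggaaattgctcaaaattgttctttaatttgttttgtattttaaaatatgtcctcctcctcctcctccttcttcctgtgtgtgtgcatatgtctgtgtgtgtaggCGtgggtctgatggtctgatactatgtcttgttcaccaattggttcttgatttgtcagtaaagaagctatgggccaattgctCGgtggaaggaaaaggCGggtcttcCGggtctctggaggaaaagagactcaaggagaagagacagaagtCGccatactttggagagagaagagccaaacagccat
The Dazl window holds 28 CG pairs along its whole length and the Tex19.1 window 16. The Rhox5 window holds 5 and the Tex19.2 window 2. The arrays measured RNA, so the methylation of these pairs was not measured here.

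The gene with the smallest p was Tex19.1, which encodes a protein of germ cells, embryonic stem cells and placenta that is known for restraining retrotransposons. It read 193, 920.5 and 707 units in knockout arrays 1, 2 and 3, against 6.57, 4.42 and 3.09 units in control arrays. The control values lay in the lowest 24.1% of their arrays and the lowest knockout value above 75.2% of its array. The difference was 4.66 ± 0.50 (log2, SE, n = 3 each), with an adjusted p of 0.00285 in limma. Tex19.2, its paralogue, lies next to it on chromosome 11 with 0 annotated genes between them. Tex19.2 read 88.4, 530.1 and 297 units in knockout arrays against 7.00, 3.54 and 3.75 in control arrays. All knockout values exceeded all control values, and the difference was 3.65 ± 0.51 (limma, adjusted p 0.0144).

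Dazl, an RNA-binding protein required for germ cell development, read 113, 483 and 150.0 units in knockout arrays, against 7.56, 4.88 and 3.30 in control arrays. Its difference was 3.38 ± 0.51 (limma, adjusted p 0.0216), and a second Dazl probe set differed by 3.26. Mnd1, a partner in the strand exchange step of meiotic recombination, read 777, 2483 and 1858 units in knockout arrays, against 234, 192 and 235 in control arrays, without overlap. The difference of Mnd1 was 2.73 ± 0.40 (limma, adjusted p 0.0197). The control values of Mnd1 lay above the array medians.

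Trap1a, an X-linked gene of testis and placenta first known as a tumour rejection antigen, read 142, 814 and 799 units in knockout arrays. It read 8.76, 3.59 and 6.10 in control arrays, and the difference was 4.41 ± 0.62 (limma, adjusted p 0.0144). Rhox5, an X-linked homeobox gene of testis, epididymis and placenta, read 23.0, 199 and 147 units in knockout arrays, against 1.00, 3.55 and 1.00 in control arrays. Knockout array 1 thus reached a level of Rhox5 far below the other knockout arrays, yet above every control array, and the difference was 2.67 ± 0.44 (limma, adjusted p 0.0398). Dpep3, a dipeptidase expressed in testis, read 72.9, 269 and 203 units in knockout arrays, against 9.94, 18.6 and 8.20 in control arrays. Its difference was 2.63 ± 0.42 (limma, adjusted p 0.0336). The remaining gene, Gm9222, is a predicted gene with no role given here, and its probe set is of a kind that may bind other transcripts too. Gm9222 read 434, 879 and 441 units in knockout arrays, against 26.1, 47.6 and 48.8 in control arrays (3.37 ± 0.47, limma, adjusted p 0.0144).

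**Figure D1:**
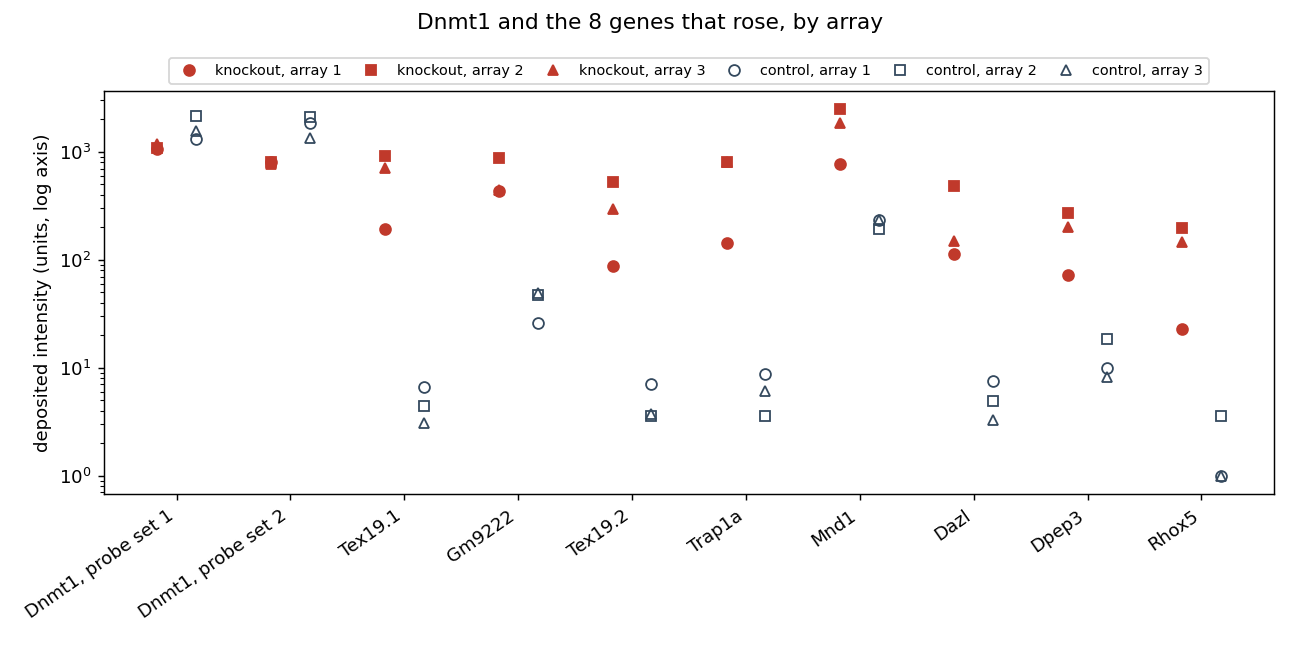
Deposited intensity (units, log axis) of the 2 Dnmt1 probe sets and the 8 genes that rose, with 1 point per array: filled red for knockout and, to the right of it, open for control, and 1 symbol per littermate pair. All knockout points of the 8 genes lie above all control points, knockout array 1 (circles) is the lowest and knockout array 2 (squares) the highest of the knockouts in each of the 8, and both Dnmt1 probe sets are lower in all 3 knockout arrays.

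The 8 genes had the same order across the knockout arrays as deposited. Every one was higher in the knockout in all 3 littermate pairs, as were 10.2% of all genes, and a choice by p favours such agreement. In every one knockout array 1 read lowest and knockout array 2 highest of the knockouts, before normalization. The share of all genes with this order was not counted. Gm9222 was close, at 434 and 441 units in knockout arrays 1 and 3, and its pair differences were 3.434, 3.855 and 2.82. Those of Dpep3 were 1.741, 3.064 and 3.084. The pair differences of Tex19.1 were 3.22, 5.61 and 5.15 in pairs 1, 2 and 3, and those of Rhox5 were 1.31, 3.48 and 3.24. The 2 Dnmt1 probe sets did not follow this order: knockout array 1 was the lowest knockout on the first and the highest on the second. Knockout array 1 also had a median intensity of 41.1 units, the lowest of the 6 arrays, and the part of this in its lower values was not tested. Of the 8 genes, 6 passed the filter on low values only through the knockout arrays (5.24% of all genes did), so their place among the tested genes already required a high knockout level.

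With littermate pairs as a block, 13 genes rose (0.151% of those tested), all 8 among them, and none fell. The number past the threshold depended on single arrays. Without knockout array 1 it was 13. Without any one of knockout array 2, knockout array 3, control array 1, control array 2 or control array 3 it was 1, Tex19.1, although the differences stayed positive. Fitted on the 6 arrays alone, without the spread of the stem cell and MPP arrays, 2 genes passed (0.0232%), Tex19.1 and Gm9222, and with a pseudocount of 64 in place of 16 none did (limma, adjusted p of the 8 from 0.0702 to 0.279).

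Over all genes few differences passed an unadjusted threshold, and the balance of directions depended on the fit. At an unadjusted p under 0.05, 72 genes were higher (0.836%) and 16 lower (0.186%), together 1.02% of those tested. A difference above 1 was seen in 51 genes (0.592%) and one below -1 in 10 (0.116%). A difference above 2 was seen in 15 genes and one below -2 in none. Genes whose knockout values all lay above all control values numbered 241 (2.8%), and those with all below numbered 266 (3.09%), so large differences were upward while complete separation was about as frequent either way. With the block, 131 genes (1.52%) were higher and 94 (1.09%) lower at that unadjusted p, and with the block on the 6 arrays alone 196 (2.28%) were higher and 195 (2.26%) lower. Without the filter on low values, 112 of 12393 genes were higher and 76 lower. Of all differences whatever their p, 3930 were positive (45.6%) and 4658 negative (54.1%), the shares against which the counts of signs in the gene lists below are to be read.

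**Figure D2:**
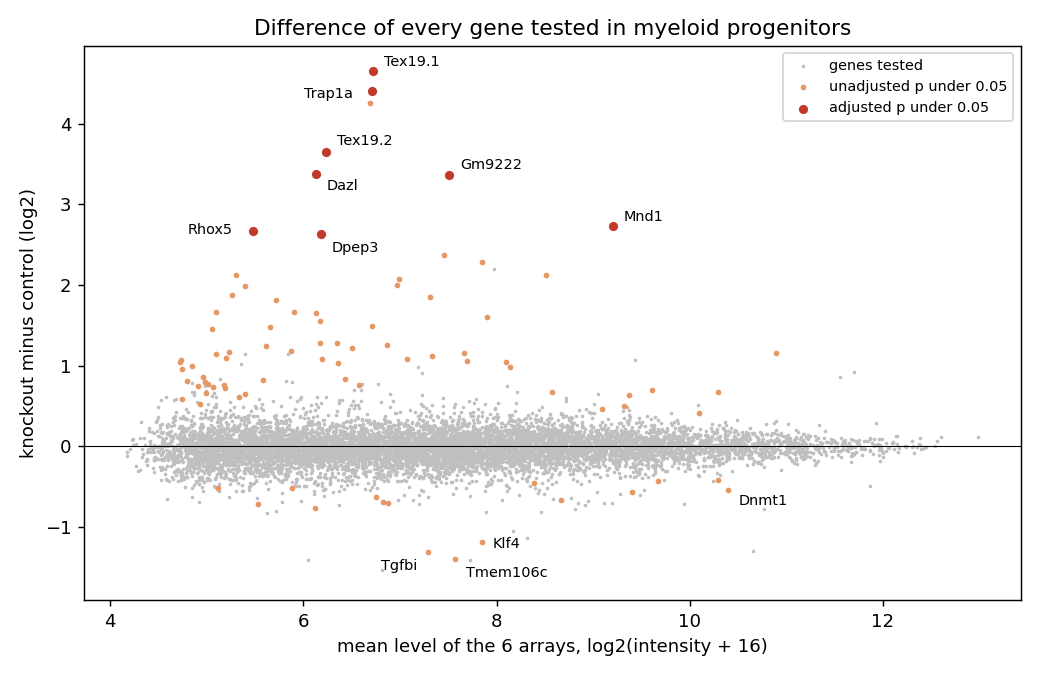
Knockout minus control (log2) against the mean level of the 6 arrays for each of the 8612 genes tested, 1 point per gene, with unadjusted p under 0.05 in orange and adjusted p under 0.05 in red. The 8 genes that rose lie between 2.63 and 4.66, and no gene lies below -2.

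Behind the 8 came genes that missed the threshold, of which the 8 with the smallest p are given as values. All 8 were higher in every knockout array than in every control array, as were 2.8% of all genes, and a choice by p favours such separation. Rpl39l, 4930550L24Rik and Tex12 passed the filter on low values only through knockout arrays, as did 5.24% of all genes. In all 8 knockout array 1 was again the lowest knockout as deposited. Rpl39l, a paralogue of a ribosomal protein that is found mainly in testis, read 101, 862 and 856 units in knockout arrays against 9.25, 7.02 and 5.03 in control arrays. Its difference was 4.26 ± 0.81, with an adjusted p of 0.107 in limma and 0.0520 with the block. Ipp, named for a transcript that starts in an intracisternal A particle, a mouse retrotransposon, read 266, 649 and 642 units in knockout arrays against 108, 60.5 and 107 in control arrays. The difference of Ipp was 2.29 ± 0.39, and its adjusted p was 0.0526 without and 0.0360 with the block (limma). Noct, which encodes nocturnin, a protein under circadian control, read 347, 1122 and 1003 units in knockout against 180, 137 and 173 in control arrays. Its difference of 2.12 ± 0.40 had an adjusted p of 0.105 in limma and 0.0354 with the block.

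Tex12, a component of the synaptonemal complex that joins chromosomes in meiosis, differed by 1.87 ± 0.40, with 25.3, 100.2 and 63.0 units in knockout arrays against 5.41, 3.06 and 2.75 in control arrays. The X-linked 4930550L24Rik differed by 1.46 ± 0.30. Gm6958 read 2276, 4126 and 2620.2 units in knockout and 996, 1545 and 1390.2 in control arrays, a difference of 1.16 ± 0.26. The prefoldin subunit Pfdn1 and the cell polarity gene Pard6b differed by 1.05 ± 0.23 and 1.18 ± 0.29. Of these, Gm6958 rose with the block (limma, adjusted p 0.0340), as did Slfn4 and Tnnt1. Slfn4, a Schlafen gene induced by interferon in myeloid cells, read 135, 669.9 and 568 units in knockout arrays against 30.3, 46.9 and 143 in control arrays, where control array 3 lay above knockout array 1 as deposited but not after normalization. Its difference was 2.37 ± 0.79, with an adjusted p of 1.00 without and 0.0354 with the block in limma. Tnnt1, a troponin of slow skeletal muscle, read 115, 421 and 436 units in knockout against 58.1, 77.3 and 69.0 in control arrays (1.85 ± 0.46, limma, adjusted p 0.0446 with the block).

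No gene fell past the threshold in limma, with or without the block, and 16 had a negative difference at an unadjusted p under 0.05. The 8 with the smallest p besides are given as values, and in 5 of them the groups did not overlap. Every knockout array lay below every control array in 3.09% of all genes, and a choice by p favours such separation. Tgfbi, a secreted matrix protein induced by TGF-beta and abundant in monocytes, read 110.0, 89.9 and 55.1 units in knockout arrays, against 222, 420.0 and 140.1 in control arrays. The difference was -1.32 ± 0.50, and all 4 Tgfbi probe sets were lower in the knockout, by -0.80 to -1.32. Tmem106c, a membrane protein, read 139, 175 and 35.1 units in knockout arrays against 289.9, 394 and 243 in control arrays, a difference of -1.40 ± 0.46. The lowest value of Tmem106c was on knockout array 3, and its second probe set differed by only -0.35.

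Klf4, a transcription factor of monocyte differentiation, read 214, 81.4 and 137 units in knockout arrays, against 419, 464 and 206 in control arrays. Control array 3 lay below knockout array 1, and the difference was -1.20 ± 0.50 (second probe set -1.01). Fn1, the matrix protein fibronectin, read 21.5, 16.1 and 17.8 units in knockout arrays against 70.0, 44.2 and 21.98 in control arrays (-0.72 ± 0.31). A second Fn1 probe set, which did not pass the filter, differed by 0.017. Gspt2, a translation termination factor, differed by -0.77 ± 0.26, and Smyd2, a lysine methyltransferase, by -0.46 ± 0.20. Cmtm7 differed by -0.43 ± 0.17, but its second probe set by only -0.004. Mfhas1 differed by -0.71 ± 0.30. The adjusted p of each of these was 1.00 in limma.

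The list of germline and early embryo genes was described as a whole. It holds 49 genes, of which 37 had a probe set and 22 passed the filter, 17 of them only through knockout arrays, so neither the counts nor the median over those 22 support a shift of the list. Past the threshold in limma 7 rose and none fell, the same with the block, beside 0.0929% risen among all genes. Beyond these 7, 6 had a positive difference with an unadjusted p under 0.05 (0.836% of all genes had), and 20 of 22 differences were positive. The median difference was 1.14, beside -0.02 over all genes tested, and 0.56, 1.64 and 1.25 in pairs 1, 2 and 3. It was 0.75 without knockout array 2 and 1.49 without knockout array 1, and 1.94 with a pseudocount of 1. The summed intensity of the 22 was 1843, 7526 and 5718 units in knockout arrays 1, 2 and 3, against 551, 531 and 657 in control arrays.

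Among the 6, besides Rpl39l, 3 act in meiosis or its chromatin. Hormad1, a meiotic chromosome axis protein, read 12.5, 92.7 and 55.4 units in knockout arrays against 1.73, 3.62 and 4.12 in control arrays (1.66 ± 0.47). Brdt, a bromodomain protein of the testis, read 29.8, 136 and 115 units in knockout against 12.9, 8.09 and 12.9 in control arrays (1.81 ± 0.48). Stag3, a cohesin subunit of meiosis, read 46.9, 225 and 73.5 units in knockout against 14.7, 58.7 and 22.8 in control arrays, and here the groups overlapped (1.28 ± 0.58). Asz1, of the pathway that makes Piwi-interacting RNAs, differed by 0.77 ± 0.28, and Taf7l, a testis form of a general transcription factor, by 1.00 ± 0.33. The other 9 members tested differed by -0.16 to 0.69, and 3 of them, chosen after their values were seen, stand for meiosis and germ cell RNA. Sycp3, of the synaptonemal complex, read 33.9, 56.5 and 90.2 units in knockout arrays and 51.2, 39.7 and 108 in control arrays (-0.08 ± 0.34). Rec8, the meiotic cohesin, read 43.3, 76.3 and 87.3 units in knockout and 44.3, 50.2 and 98.2 in control arrays (0.11 ± 0.55). Ddx4, the germ cell helicase known as Vasa, differed by 0.23 ± 0.34, with values of 6.02 to 24.8 units in knockout and 1.63 to 14.7 in control arrays.

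Imprinted genes, whose allele choice depends on methylation, did not pass the threshold in limma in any of 18 tested members. Their median difference was 0.05, and 12 of 18 were positive, beside 45.6% of all genes. Plagl1, an imprinted zinc finger gene, had the smallest p among them and read 87.2, 385 and 115 units in knockout arrays, against 89.9, 69.1 and 30.9 in control arrays. Knockout array 2 held the high value, and knockout array 1 did not exceed its littermate control as deposited, although the groups did not overlap after normalization. The difference of Plagl1 was 1.25 ± 0.51, and 0.01, 2.27 and 1.47 in pairs 1, 2 and 3. Of 25 tested chromatin repressors 1, Suv39h2, a histone H3 lysine methyltransferase, had an unadjusted p under 0.05 and a positive difference, beside 0.836% of all genes. It read 201, 432 and 239 units in knockout arrays against 140.0, 105 and 149 in control arrays (1.06 ± 0.33).

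None of the tested genes of the myeloid lists passed the threshold in limma, and most differences were negative, as were 54.1% of those of all genes. Klf4, a member of both the commitment and the monocyte list, and Cd68 had an unadjusted p under 0.05, as had 1.02% of all genes. Of 21 regulators of myeloid commitment 17 were lower, with a median of -0.17 beside -0.02 over all genes, and medians of -0.28, -0.53 and 0.00 in pairs 1, 2 and 3. Cebpa, the transcription factor needed to form granulocyte and monocyte progenitors, read 607, 389 and 463 units in knockout arrays, against 765, 893 and 679 in control arrays. On the deposited scale all knockout values of Cebpa lay below all control values, but after normalization the groups overlapped, and the difference was -0.60 ± 0.32. Myb, which keeps progenitors dividing, differed by -0.17 ± 0.11, with 2285, 2526 and 2372 units in knockout against 2580.1, 2657 and 2569 in control arrays.

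Genes of primary granules, which mark the promyelocyte stage, had a median of -0.10 (0.05 without knockout array 2), and 10 of 13 were lower. Ctsg, cathepsin G, read 3472, 2641 and 3584 units in knockout arrays and 15000.6, 2555 and 3551 in control arrays. Its difference was -0.50 ± 0.53, and 0.07 without control array 1. Lysozyme genes were close: Lyz2 read 1367, 1550.3 and 1865 units in knockout and 1751, 1861 and 1804 in control arrays. Of 15 monocyte genes 12 were lower (median -0.14), while Cd68, a lysosomal protein of macrophages, was higher, at 92.5, 91.6 and 112 units in knockout against 58.2, 26.9 and 67.3 in control arrays (0.83 ± 0.32).

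Markers of mature granulocytes differed between littermate pairs in both genotypes. Of 13 tested members 12 were lower, with a median of -0.56 that moved to -1.05 without knockout array 3 and to -0.03 without knockout array 2. Ngp, a protein of secondary granules, read 32.9, 25.3 and 1438 units in knockout arrays, against 296, 190.8 and 1371 in control arrays. Pair 3 was high in both genotypes and differed by 0.03, while pairs 1 and 2 differed by -2.53 and -2.30. Camp, the cathelicidin precursor, had the same shape, with 78.3, 60.7 and 1432 units in knockout and 312, 229 and 1451 in control arrays. Anxa1, the anti-inflammatory annexin, had the smallest p of the list and was lower in all 3 pairs, with differences of -0.74, -0.57 and -0.49 (-0.60 ± 0.39). Anxa1 read 590, 338 and 868 units in knockout arrays against 1106, 523 and 1248 in control arrays. The summed intensity of the list was 2880, 1654 and 14431 units in knockout arrays and 6724, 4448 and 14201 in control arrays. In the list of mast cells, basophils and eosinophils 9 of 13 were lower (median -0.18, and 0.09 without control array 3), and Epx, eosinophil peroxidase, followed the same arrays, with 79.5, 72.8 and 976 units in knockout and 614, 117 and 942 in control arrays.

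Immediate early genes, which are transcribed within minutes of a stimulus or of cell handling, were lower in all 14 of 14 tested members. Their median was -0.64 (-1.35 without control array 3 and -0.24 without control array 1). Without the pair block 1 of them, again Klf4, had an unadjusted p under 0.05, as had 0.186% of all genes in that direction. With the block 5 had, all lower (1.09% of all genes), namely Zfp36, Klf4, Fos, Jun and Dusp1, and none passed the adjusted threshold in limma. Fos read 273, 167 and 21.5 units in knockout arrays, against 1113, 692 and 37.7 in control arrays. Its difference was -1.41, with an SE of 1.66 without and 0.43 with the block, and it was lower in all 3 pairs, with differences of -1.78, -1.98 and -0.47. Klf2, a quiescence-associated factor, read 39.1, 17.1 and 13.4 units in knockout and 113, 77.1 and 9.73 in control arrays (-0.81 ± 0.79). Fos was low on both arrays of pair 3, and after normalization the groups overlapped for every one of the 14. The list medians were -0.76, -1.08 and 0.00 in pairs 1, 2 and 3, and its summed intensity was 3341, 2622 and 1620 units in knockout arrays against 6834, 5940 and 1651 in control arrays. The ratio of the 3′ to the 5′ Gapdh probe set, a measure of RNA integrity, was 2.33, 4.35 and 2.36 in knockout arrays and 5.27, 4.30 and 2.25 in control arrays. The Gapdh ratio was lower in knockout array 1 than in its littermate control and close within pairs 2 and 3. The same ratio of beta-actin was 1.13, 1.02 and 1.04 in knockout arrays and 1.18, 0.921 and 1.13 in control arrays, close in pair 1. The part of RNA integrity in these differences was not tested.

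**Figure D3:**
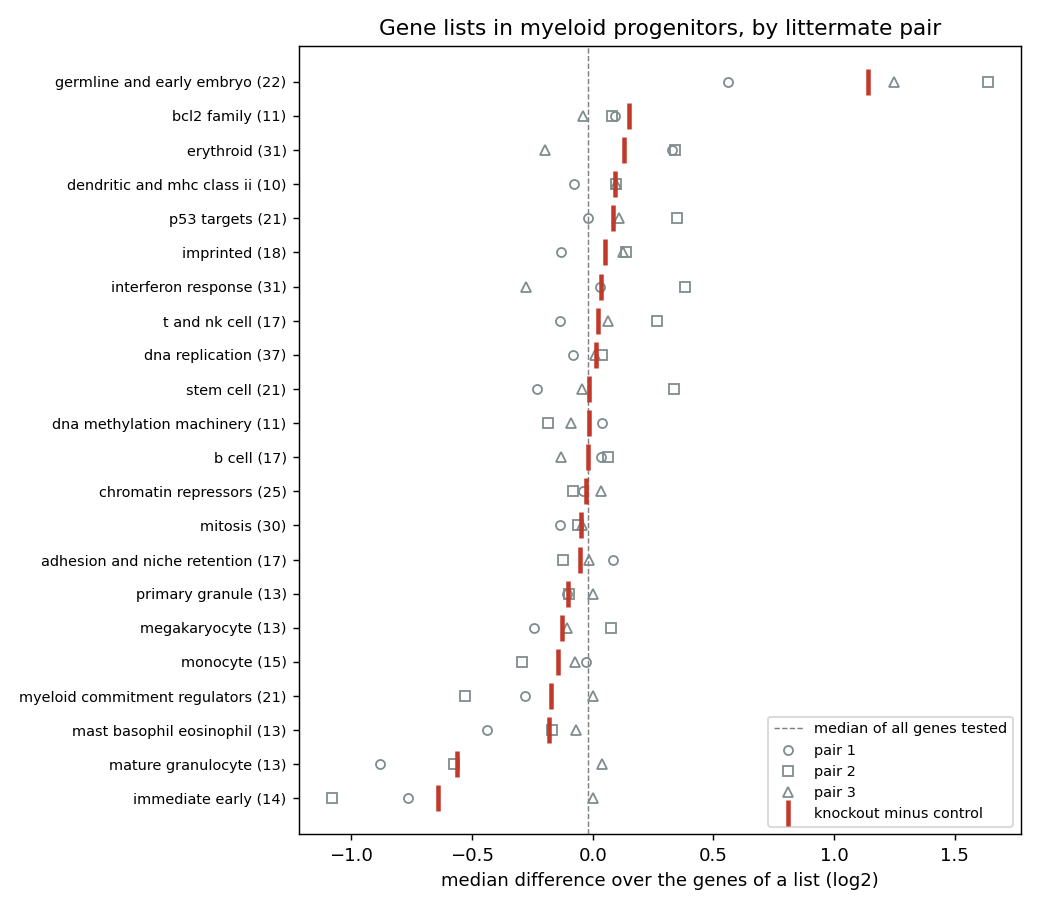
Median knockout minus control difference (log2) over the tested genes of each list with at least 10 of them, the number in brackets: open symbols for littermate pairs 1 to 3, the red bar for the fitted difference, and the dashed line for the median of all genes tested. Germline genes, of which 17 of 22 passed the filter only through knockout arrays, stand at 1.14 with all 3 pairs to the right, while immediate early and mature granulocyte genes, at -0.64 and -0.56, have pair 3 at 0.00 and 0.04.

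No erythroid gene passed the threshold in limma, and none had an unadjusted p under 0.05. Of 31 tested members 24 were positive, with a median of 0.13 and pair medians of 0.33, 0.34 and -0.20. Slc4a1, the anion exchanger band 3, read 81.5, 105 and 102 units in knockout arrays against 56.8, 58.6 and 80.7 in control arrays, without overlap (0.48 ± 0.26). Gata1, the master regulator of the red cell and megakaryocyte lineages, overlapped between groups, at 183, 369 and 202 units in knockout and 147, 209.6 and 217 in control arrays. Of 13 megakaryocyte genes 9 were negative (median -0.13), and of 21 stem cell genes 12 were (median -0.01), beside 54.1% of all genes. Procr, a stem cell surface marker, read 21.5, 28.2 and 29.0 units in knockout arrays against 53.6, 69.9 and 39.2 in control arrays (-0.69 ± 0.56).

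No gene of growth arrest or death passed the threshold in limma. Of 21 tested p53 targets 17 were positive, beside 45.6% of all genes, and the median was 0.09. In 4 of the 21 every knockout array lay above every control array (2.8% of all genes), and 2, Cdkn1a and Perp, had an unadjusted p under 0.05 (0.836% of all genes). Cdkn1a, the p21 inhibitor of the cell cycle, read 85.1, 135 and 105 units in knockout arrays against 47.8, 42.5 and 87.7 in control arrays (0.76 ± 0.26). Control array 3 lay above knockout array 1 as deposited, and after normalization the groups did not overlap. Perp, a p53-induced membrane protein, read 59.7, 102 and 188 units in knockout and 42.7, 8.40 and 36.1 in control arrays, without overlap (1.55 ± 0.56). Both had an adjusted p of 1.00. In the BCL2 family 7 of 11 were positive, with a median of 0.15, and Pmaip1, which encodes the death promoter Noxa, read 45.6, 62.5 and 117 units in knockout and 42.6, 33.1 and 46.2 in control arrays (0.61 ± 0.53).

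DNA replication genes had a median of 0.01 over 37 members, none beyond -0.22 or 0.15. Mitosis genes had a median of -0.05 over 30 members. Kif23, a kinesin of cell division, differed by -0.44 ± 0.27, with 229.8, 255 and 272 units in knockout and 439, 421 and 270.0 in control arrays. Interferon response genes had a median of 0.03 over 31 members (0.53 without control array 3 and -0.30 without control array 2), with pair medians of 0.03, 0.38 and -0.28. Their summed intensity was 6846, 7106 and 14673 units in knockout arrays and 6960, 5649 and 16600 in control arrays, so pair 3 was high in both genotypes. T and NK cell, B cell, MHC class II, endothelial and stromal, adhesion, metallothionein and sex-linked lists had medians between -0.06 and 0.17, and none of their members passed in limma.

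The effect in myeloid progenitors was compared with that in the other populations through interaction terms of the same fit. No gene passed an adjusted p of 0.05 in limma, against LT-HSCs, against MPPs or against the mean of both, where 228 (2.65%), 42 (0.488%) and 66 (0.766%) of 8612 genes had an unadjusted p under 0.05. The 8 genes that rose had positive differences in all 3 populations, and the share of all genes with such signs was not counted. Of the 8, 3 passed the threshold in LT-HSCs (0.0464% of all genes rose there) and 4 in MPPs (0.0697%), each measured with 2 arrays per genotype. The filter on low values counted the knockout arrays of all 3 populations. As 6 of the 8 passed it only through knockout arrays, these signs and calls were not independent of the filter. Tex19.1 differed by 4.66 ± 0.50 in myeloid progenitors, by 5.69 ± 0.61 in LT-HSCs and by 4.73 ± 0.61 in MPPs. Rhox5 differed by 2.67 ± 0.44 in myeloid progenitors against 3.78 ± 0.54 in LT-HSCs and 4.17 ± 0.54 in MPPs. Dazl differed by 3.38 ± 0.51 in myeloid progenitors against 2.54 ± 0.63 in LT-HSCs and 2.48 ± 0.63 in MPPs. The myeloid progenitor effect on Rhox5 minus the mean of the other 2 was -1.31, with an unadjusted p of 0.0437 and an adjusted p of 1.00 in limma, and that on Dazl was 0.87, with an unadjusted p of 0.222.

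**Figure D4:**
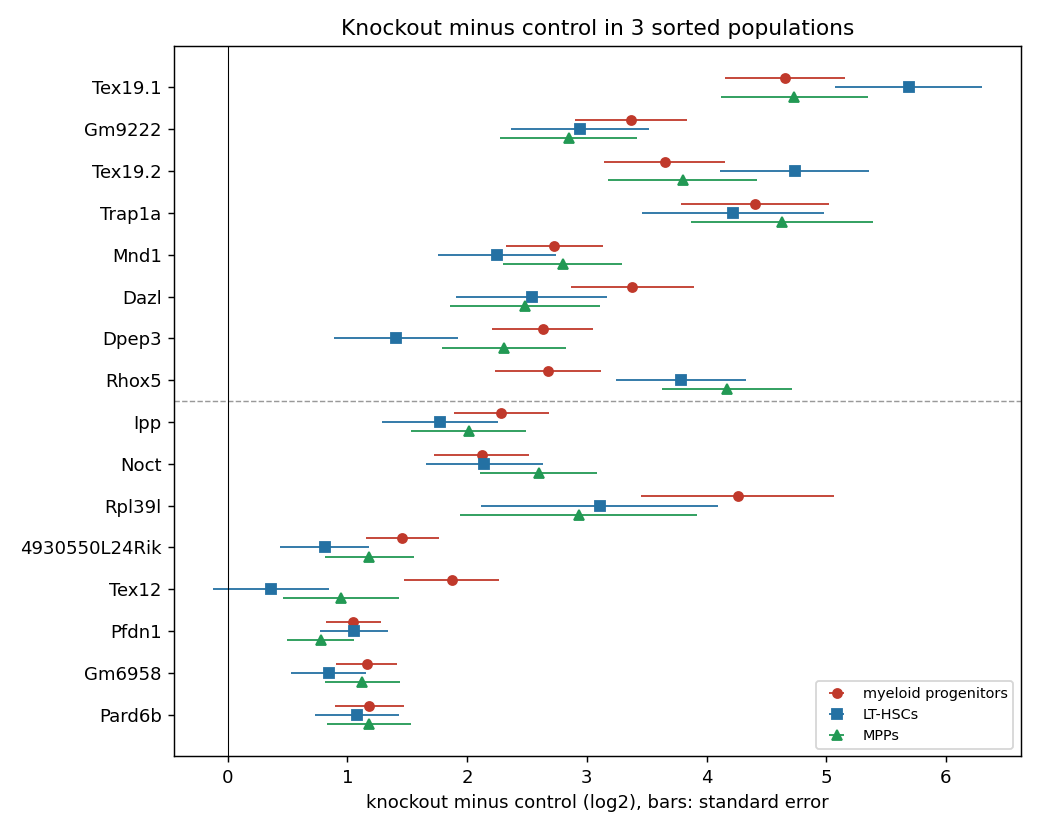
Knockout minus control (log2, bars are the standard error of the limma fit) in myeloid progenitors (3 arrays per genotype), LT-HSCs and MPPs (2 each) for the 8 genes that rose, above the dashed line, and the 8 with the next smallest p among positive differences, below it. All points lie to the right of 0, and Tex12 spreads from 0.36 in LT-HSCs to 1.87 in myeloid progenitors.

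Since no gene passed, those with the smallest interaction p are named after their values were seen. Against LT-HSCs it was Rhoc, a small GTPase that read 1.23, 4.73 and 9.61 units in knockout and 3.42, 8.02 and 7.73 in control myeloid progenitors, a difference of -0.08 ± 0.34, against 3.41 ± 0.41 in LT-HSCs. The interaction was -3.48 ± 0.54, with an adjusted p of 0.147 in limma. The control values of Rhoc lay in the lowest 25.9% of their arrays. Its probe set passed the filter on low values only through knockout arrays, which were counted over all 3 populations. Against MPPs the smallest were those of Mt2, Ermap and Car1. Car1, the carbonic anhydrase of red cell precursors, differed by 0.13 ± 0.42 in myeloid progenitors and by 2.46 ± 0.51 in MPPs, an interaction of -2.33 ± 0.66 with an adjusted p of 1.00. Mt2, a metallothionein, differed by 0.46 ± 0.30 in myeloid progenitors and by 2.46 ± 0.37 in MPPs (interaction -2.01 ± 0.47, limma, adjusted p 1.00), and Ermap by -0.24 ± 0.40 and 2.19 ± 0.49.

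The promoter windows of the 8 genes that rose were compared by letters alone. They held 16 (Tex19.1), 23 (Gm9222), 2 (Tex19.2), 8 (Trap1a), 12 (Mnd1), 28 (Dazl), 12 (Dpep3) and 5 (Rhox5) CG pairs, with a median of 12. The 9087 windows of the 7036 tested genes with an entry, some with several starts, had a median of 20 CG pairs and an interquartile range of 11 to 29, and all 32851 windows of the table a median of 7 and a range of 3 to 20. Dazl had more CG pairs than 72.5% of the windows of tested genes, and Tex19.2 more than 2.37%. The letters CACGTG, an E-box, and GCGGGAA, part of the site of E2F factors, were searched on both strands, since both are known from promoters of germline genes. CACGTG reads the same on either strand and shares CG with GCGGGAA without containing it. They occurred in 0 of the 8 windows, beside 10.1% and 8.08% of the windows of tested genes, which says only that these letters are not in these 300 bases. Of the 8 genes 2, Trap1a and Rhox5, lie on the X chromosome.

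**Figure D5:**
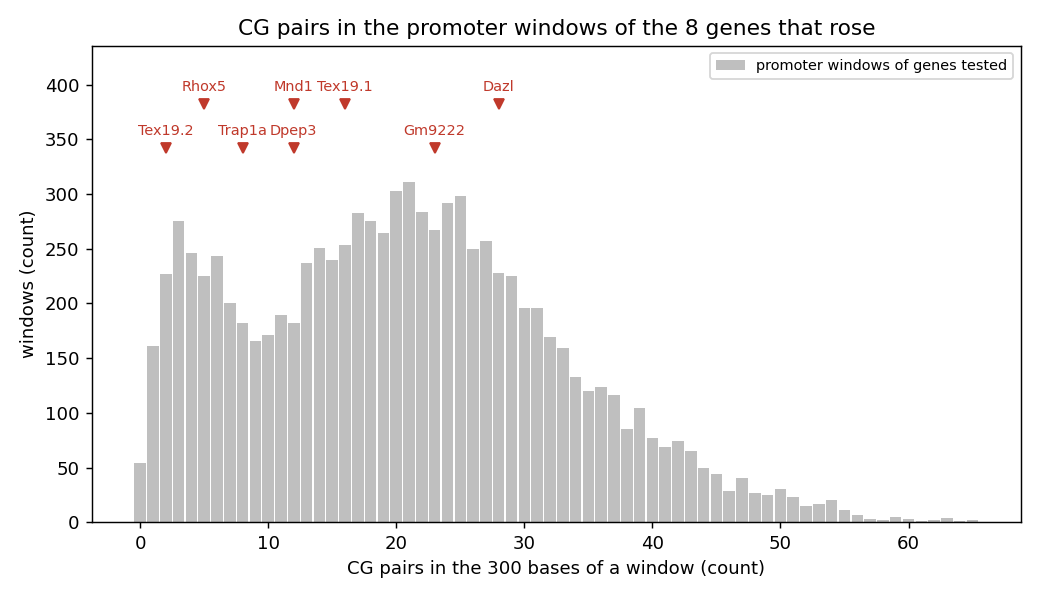
CG pairs per 300-base promoter window (bars, number of windows of tested genes) with the 8 genes that rose marked above by triangles at their own count, the height of a triangle having no meaning. The 8 run from 2 in Tex19.2 to 28 in Dazl, and 6 of them lie below the median of 20.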

How the data were processed

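RNA of sorted, pooled marrow cells was amplified (WT-Ovation Pico), labelled with biotin and hybridised to Affymetrix arrays, per the labels' protocols. Each value the authors deposited is the linear intensity of 1 probe set on 1 array, a unit inferred from the range of the values. Their summarisation, background correction and scaling are not given in the sources used here.

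From the deposited intensities, log2(intensity + 16) was computed and quantile normalized over the 14 arrays. Differences on this log2 scale understate the changes of dim genes. Of 22690 probe sets, 20380 have 1 gene symbol in the platform annotation, 691 have several and 1555 have none. Probe sets that reached above the 40th percentile on 2 or more arrays were kept, and each gene was represented by its probe set with the highest mean, which left 8612 of 12393 genes. A single limma fit (limma 3.58.1, R 4.3.3) of 6 group means, with a trend of the variance on the mean, gave all differences, standard errors and two-sided p-values, adjusted by Benjamini-Hochberg over all genes tested, with a threshold of 0.05. It had 8 residual degrees of freedom, and the median gene had 5.39 prior ones. Interaction terms came from the same fit. The procedure was tested on simulated data. Arrays have no depth to state, and the number of them limits the precision.

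Same-numbered knockout and control arrays came from littermates, per the labels, and their deviations from the group means correlated with r of 0.20, 0.54 and 0.61 in myeloid progenitors. The fit that also has the 7 pairs as a block kept 4 residual degrees of freedom and is cited wherever a call differs.

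Genes are named by a rule: Dnmt1, all genes past the threshold, the 8 with the smallest p on either side among those that missed it, up to 3 members of each list with those that set it apart, and markers. Genes outside the rule are named as chosen after their values were seen. The gene lists, the rule and the comparison itself were chosen with earlier results of these data known. Lists were not tested. They are described by counts and medians beside those of all genes. Promoter windows, each of 250 bases upstream and 50 downstream, came from RefSeq (GRCm38.p6) by gene identifier. The alternatives tried were other pseudocounts, scalings, filters, probe set rules and sample sets, the pair block, and leaving out each array or pair. Figures used Python 3.11.15 with matplotlib 3.10.9.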

Additional observations from a re-analysis of the deposited data

Results flagged for a closer look

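Probe sets without a single gene symbol stood outside the comparison of named genes. Of these, 1351 passed the filter on low values. In a limma fit of all 9963 features 12 of them (0.888%) were past the threshold in knockout myeloid progenitors, all upward. Of all 9963, these 12 included, 21 were (0.211%). With littermate pairs as a block 20 of the 1351 were (1.48%), beside 0.361% of all, and none fell in either fit. All 12 had every knockout array above every control array, as had 3.22% of all features, and 5 of the 12 passed the filter only through knockout arrays. The largest differences were 5.33, 5.14 and 4.798, of probe sets 1456182_x_at, 1433438_x_at and 1456456_x_at. The first of them read 536, 1543 and 1172 units in knockout arrays 1, 2 and 3, against 11.6, 7.76 and 6.14 in control arrays, with an adjusted p of 3.4e-05 in limma. Probe sets with no symbol and high knockout levels were 1436362_x_at at 3.09 and 1452433_at at 3.06. Probe set 1452433_at read 2740.0, 3751 and 2833 units in knockout arrays against 177, 703 and 342 in control arrays. The others with no symbol differed by 1.42 (1455316_x_at), 2.41 (1451626_x_at), 2.63 (1452452_at), 2.72 (1456319_at) and 2.43 (1425584_x_at). With several symbols each, 1448715_x_at (Sgip1, Cog6 or Noct) differed by 1.85 and 1418809_at (Pirb, Pira2 or Pira1) by 3.25. What these probe sets bind was not tested. Those ending in x_at are of the kind that may bind other transcripts too, so the 12 may not be 12 separate transcripts.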

How the results depend on the processing

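The number of genes past the threshold in knockout myeloid progenitors, 8 as reported, was 0 with a pseudocount of 64, 2 on the 6 arrays alone, 13 with littermate pairs as a replicate block, and 0 without both arrays of pair 2 or of pair 3. Leaving out 1 array at a time gave 1 to 13. In the other alternatives it stayed within 6 to 12, and no gene fell and no interaction passed in any alternative where it was computed. The 8 differences stayed positive throughout. In myeloid progenitors the block changed no other call than the 5 added genes. Differences near 0 changed sign, and so did that of Ctsg, -0.50 with all arrays, when control array 1 was left out. Leaving out 1 array at a time gave -0.871 to 0.068 for Ctsg, -0.246 to 0.081 for Rhoc, -0.249 to 0.015 for Kit, -0.329 to 0.221 for Sycp3, -0.033 to 0.355 for Rec8 and -0.027 to 0.447 for Ddx4. Without pair 2 Car1 differed by -0.055, Ddx4 by -0.272 and Rec8 by -0.051, and without pair 1 Sycp3 differed by 0.084. Fewer arrays leave wider errors, and the cause of these changes was not tested. With 3 arrays per genotype and levels near the array's bottom, differences not well above the median standard error of 0.29 could not be resolved. Far larger ones could miss the threshold too, as that of Rpl39l did at 4.26 (limma, adjusted p 0.107).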
